A study of Gallus gallus with 53 samples.

Results

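Wild type DT40 cells, a chicken B cell line, were stimulated through the B cell receptor (BCR) with or without the MEK inhibitor U0126, and the question is which early and late rises of transcript level were lost, delayed or gained with the inhibitor. The columns were chosen by their titles alone: 12 of the 53 columns of the series, 6 from MEK inhibitor-pre-treated wild type cells (WT + Inh) and 6 from wild type cells without inhibitor (WT). Each set of 6 holds 1 unstimulated column (0 min) and 1 column at each of 15, 30, 45, 60 and 90 min after 10 μg/ml of the anti-chicken IgM antibody M4. U0126 was added 30 min before the antibody, at 5 μM by the paper's methods and at 5 mM by the sample labels. The WT + Inh 0 min column therefore carries the inhibitor as well, as far as its title says, while no WT column does. RNA was hybridised to Affymetrix GeneChip Chicken Genome arrays, and each column combines 2 biological replicates, so no spread between cultures can be read from the table. The columns hold intensities on a linear scale. Their medians lay between 2.8 and 2.91 for WT + Inh and between 2.74 and 2.95 for WT, and any 2 of the 12 columns correlated over probe sets with a Pearson r between 0.988 and 0.998.

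Rows carry no gene name here, because as a whole the row IDs do not pair with the values. Of the 505 tested IDs in the paper's list of clustered BCR-regulated probe sets, 3 rose at least 2-fold in the WT course here, 0.594%, against 0.767% of all probe sets tested. By contrast, of 210 probe sets whose ID shares a gene symbol with that of a WT rise, 36 were WT rises too (17.1%), so the pairing is not settled. Rows near each other can still hold related values, since 25 of the 206 rows that rose in WT cells (12.1%) stood directly beside another such row. Numbers of probe sets are therefore not numbers of genes. For the same reason the B cell identity of the line could not be checked against marker genes, and no sequence is shown. Single probe sets carry working labels made from their class and a number, with the row of the table in which they stand.

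Binding of antigen or anti-IgM to the BCR activates, among other routes, the Ras, Raf, MEK and ERK kinase cascade and the IKK and NF-κB pathway. MEK phosphorylates and activates ERK, and U0126 blocks MEK. ERK activates transcription factors of the ternary complex class, which switch on immediate early genes within minutes without new protein synthesis. The proteins of these genes then act on a later set of genes, so a block of MEK can act on early transcripts directly and on late ones through them. In RNA from a whole culture, a lower level in every cell and a loss of response in part of the cells cannot be told apart.

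Changes are given on the log2 scale against the 0 min column of the same cells, so that 1 is a 2-fold rise. The difference of changes is the change in WT + Inh minus the change in WT at the same time, and below 0 it means less in WT + Inh. Of the 38361 probe sets, 26852 passed a filter on dim signals and were tested. A smooth curve of time was fitted to every course of the series with limma, and a course or a difference between courses was called at an adjusted p under 0.05 after Benjamini-Hochberg adjustment over all probe sets tested. The error of these tests is the deviation of columns from their curves, with 20 residual degrees of freedom, and not a spread between cultures. The standard error of a difference of changes had a median of 0.23. For single probe sets, the difference of changes is given at the time where it was largest. The adjusted p beside it belongs to the difference over the whole course and not to that time.

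With the inhibitor, fewer probe sets rose from 30 min on and fewer fell from 45 min on after BCR stimulation. The course over time was called for 3142 probe sets in WT + Inh (11.7% of those tested) and 5120 in WT (19.1%). At least 2-fold rises from 0 min were seen at 15 min for 25 probe sets in WT + Inh and 18 in WT, at 30 min for 45 and 59, at 45 min for 76 and 95, at 60 min for 114 and 125, and at 90 min for 135 in WT + Inh and 185 in WT. At least 2-fold falls were seen at 15 min for 9 probe sets in WT + Inh and 3 in WT, at 30 min for 12 and 7, at 45 min for 20 and 43, at 60 min for 30 and 194, and at 90 min for 62 in WT + Inh and 309 in WT. WT + Inh had more rises than WT at 15 min only, and more falls at 15 and 30 min only. The median change of all probe sets tested was 0.00 at every time in WT + Inh and at most 0.02 in WT.

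The balance between differences below and above 0 shifted with time, as those above 0 became more numerous while those below 0 remained. A difference of changes of at least 2-fold below 0 was found for 13 probe sets at 15 min, 42 at 30 min, 32 at 45 min, 34 at 60 min and 49 at 90 min. Above 0, the numbers were 8, 3, 57, 129 and 132 at the same times. At 30 min the differences thus lay mostly below 0, and of the 42 at 30 min, 13 belonged to probe sets at least 2-fold higher in WT at that time. From 45 min on, differences above 0 were the more numerous, and of the 132 at 90 min, 44 belonged to probe sets at least 2-fold lower in WT while 6 were at least 2-fold higher in WT + Inh. As a yardstick, WT cells at 10 and at 1 μg/ml anti-IgM differed at least 2-fold in 0 to 6 probe sets at a time. That pair of courses shares the WT 0 min column, so its differences are differences of level. Between WT + Inh and WT the level differed at least 2-fold in that sense for 60 probe sets below and 1 above at 30 min, and for 62 below and 39 above at 90 min.

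**Figure D1:**
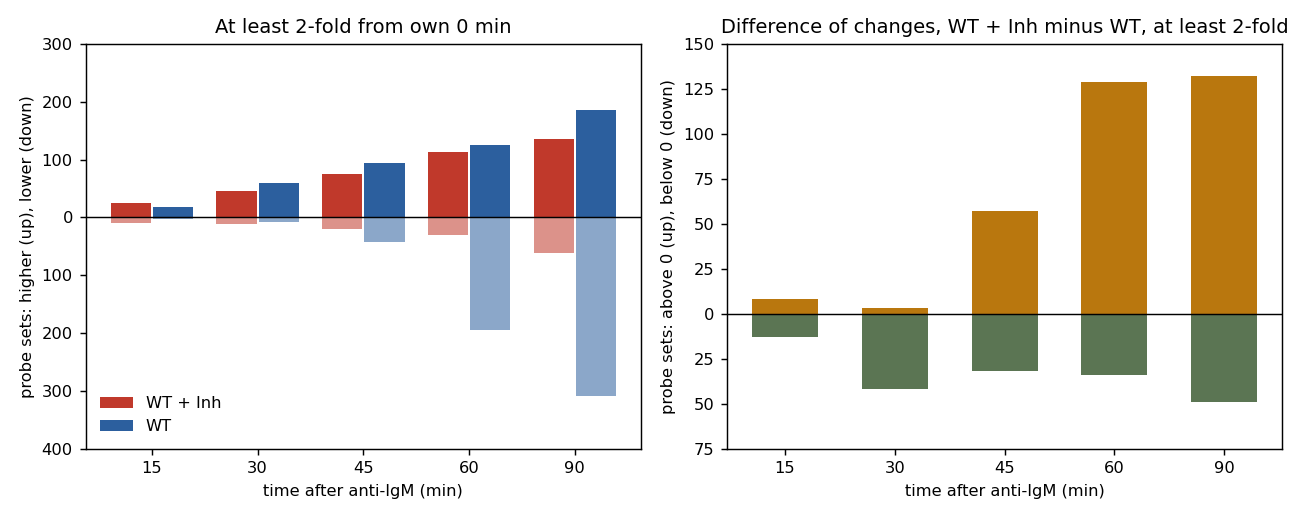
Left: number of probe sets at least 2-fold higher (upward bars) or lower (downward bars) than the 0 min column of the same cells, for WT + Inh (red) and WT (blue) at each time after 10 μg/ml anti-IgM. Right: number with a difference of changes, WT + Inh minus WT, of at least 2-fold above 0 (upward) or below 0 (downward); at 30 min 42 lay below and 3 above, and at 90 min 49 below and 132 above.

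Taken over the whole course, the difference between WT + Inh and WT was called for 2257 probe sets, 8.41% of those tested. The largest difference lay below 0 for 575 (2.14%) and above 0 for 1682 (6.26%). Of those below 0, 47 had it at 15 min, 128 at 30 min, 53 at 45 min, 138 at 60 min and 209 at 90 min, while those above 0 had it mostly at 60 min (558) or 90 min (973). With columns centred on their medians over all probe sets, an alternative added after the data had been seen, 86.2% of the called differences lay above 0, against 74.5% without it. A called difference that also reached 2-fold was found for 238 probe sets (0.886%), 66 below 0 (0.246%) and 172 above (0.641%). The count moved with the times used: it was 545 without the 90 min columns, 588 without those at 60 min, 3095 without those at 15 min and 3454 without those at 0 min. With time as a factor and 1 mean difference over the 5 times, on 4 residual degrees of freedom, 2 probe sets were called by limma and 1199 had an unadjusted p under 0.05.

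Of all probe sets tested, 206 (0.767%) rose in WT cells, which here means that the WT course was called and its highest change was at least 2-fold. Their highest value came at 15 to 45 min for 53, the early rises, and at 60 or 90 min for 153, the late rises. In WT + Inh cells 165 (0.614%) rose, 32 early and 133 late. A WT rise was counted as lost where the highest change in WT + Inh stayed under 0.5. It was counted as delayed where the change in WT + Inh was under 0.5 at the first time WT had reached 2-fold and reached 2-fold later. Of the others it was counted as reduced where the highest change in WT + Inh was less than 0.5 times that in WT, and as kept otherwise. These classes use the same values as the comparison and describe it without a test of their own. A choice made in WT also favours smaller changes in WT + Inh.

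By these definitions 34 of the 206 WT rises were lost (16.5%), 5 delayed (2.43%), 24 reduced (11.7%) and 143 kept (69.4%). A kept rise need not have reached 2-fold in WT + Inh, and 110 of the 206 did reach it there. Among the 53 early rises 6 were lost, 2 delayed, 5 reduced and 40 kept. Among the 153 late rises 28 were lost, 3 delayed, 19 reduced and 103 kept. Lost rises thus made up 11.3% of early and 18.3% of late rises, and the difference between those shares was not tested. The early number was 1 without the 45 min columns, and the late number 13 without the 90 min columns. The difference between courses was called for 24 of the 34 lost, 3 of the 5 delayed, 15 of the 24 reduced and 28 of the 143 kept rises, where 8.41% of all probe sets were called. In all, 70 WT rises had a called difference, 65 below 0 and 5 above. The median ratio of the highest log2 changes, WT + Inh over WT, was 0.75, and 162 of the 206 had the smaller one in WT + Inh. The class limits run through a continuum, since 9 lost rises had a highest change of 0.4 to 0.5 in WT + Inh and 11 other rises one of 0.5 to 0.6. Without the 90 min columns 20 rises were lost, 13 of them among the 34. Delayed rises numbered 2 without the 15 or without the 30 min columns.

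**Figure D2:**
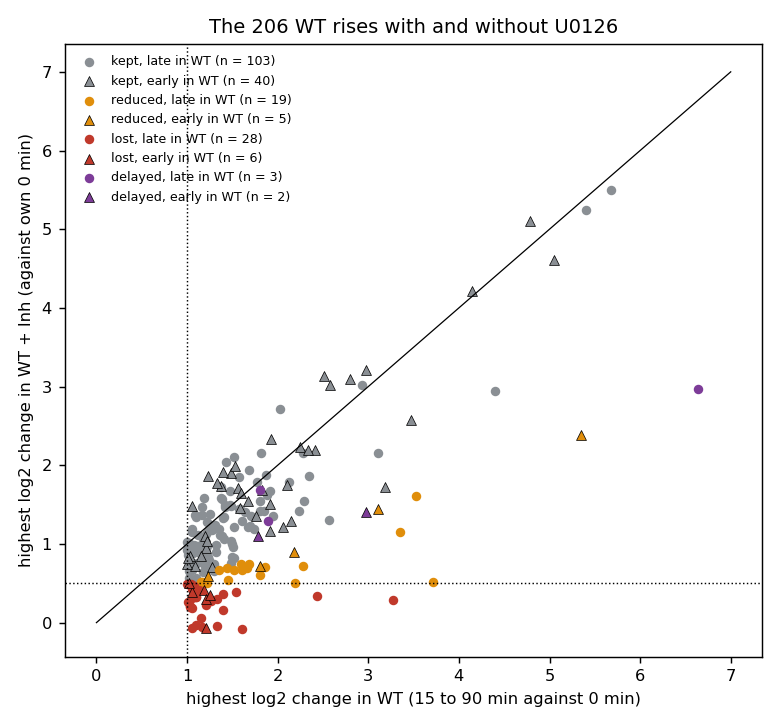
Highest log2 change against 0 min of each of the 206 WT rises in WT + Inh (vertical axis) and in WT (horizontal axis), by class and by whether the WT peak was early (triangles, 15 to 45 min) or late (circles, 60 or 90 min). The line marks equal changes and the dotted lines the limits of 1 and 0.5; most points lie under the line, 162 of 206.

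The lost rises were mostly dim. Of the 34, 28 were late, as were 153 of all 206 WT rises. The fixed limit of 0.5 is met more easily by a small WT rise than by a large one. Their median change in WT + Inh was 0.02 at 15 min, 0.08 at 45 min and 0.14 at 90 min, against 0.13, 0.62 and 1.1 in WT. Their highest intensity in the 12 columns had a median of 14.8, against 77.3 for kept rises, and 10 of the 34 reached an intensity of 32. The rise in WT was seen again in at least 1 of 2 other courses for 26 of the 34. A rise of 2-fold or more was also present for 21 of the 34 in the course at 1 μg/ml anti-IgM, which shares the WT 0 min column, and for 12 in IKKβSA cells. These cells carry IKKβ with its activation serines changed to alanine and have a 0 min column of their own. Whether IKKβSA cells also received the inhibitor is unclear, since the methods leave that reading possible and their labels do not mention it. Of all probe sets tested, 0.719% and 1.11% reached 2-fold in those courses, but the lost rises had been chosen for a rise in WT. Of the 143 kept rises, also chosen in WT, 115 reached 2-fold at 1 μg/ml and 123 in IKKβSA cells, larger shares than among the lost rises.

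The early lost probe set with an intensity over 32 and a called difference was early lost 1 (row 12603). Its intensities in WT + Inh were 40.6 at 0 min and then 42.7, 47.4, 51.3, 48.8 and 51.8 at 15, 30, 45, 60 and 90 min. In WT they were 45, 58.2, 89.4, 106.9, 101.1 and 98. From 30 min on every WT column was above every WT + Inh column, while the unstimulated levels lay close together. The difference of changes was largest at 45 min, at -0.91 (standard error 0.20, adjusted p = 2.56e-04 by limma), and the WT + Inh course itself was not called (adjusted p = 0.194). In IKKβSA cells this probe set had its highest change at 1.26.

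Among the late lost probe sets with an intensity of at least 32, late lost 1 (row 30741) had the largest difference. With the inhibitor its intensities were 38.5, 35, 34.5, 37.8, 34.1 and 30.2, against 57.2, 58.3, 65.4, 95.4, 109 and 122.8 in WT, at 0, 15, 30, 45, 60 and 90 min. The groups did not overlap, and the gap was already there at 0 min (-0.57). At 90 min the changes were -0.35 in WT + Inh and 1.1 in WT, a difference of -1.45 (standard error 0.16, adjusted p = 1.11e-08 by limma). Late lost 2 (row 4499) stayed between 21.9 and 25.6 in WT + Inh, while WT had 35.9 at 0 min, 44.3 at 30 min and 83.1 at 90 min, with a difference of -1.11 at 60 min (adjusted p = 9.23e-07). It, too, was lower in WT + Inh at 0 min. Late lost 3 (row 3361) had nearly equal unstimulated levels, 41.7 in WT + Inh and 40.3 in WT, and ended at 42.6 in WT + Inh and 89.1 in WT, with a difference of -1.11 at 90 min (adjusted p = 3.01e-06). Late lost 4 (row 26571) moved in WT only at the end, with 13.7 and 15.3 at 60 and 90 min in WT + Inh and 19.1 and 32.1 in WT. Its difference of -0.99 was no longer called without the 90 min columns (adjusted p = 0.332).

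The largest WT rises that were lost are outside the rule for single probe sets because of their low signal, and were picked after their values had been seen. Dim lost 1 (row 4278) stayed between 1.75 and 2.17 in WT + Inh at all 6 times, near the low end of the array. WT had 1.72, 2.24, 6.28, 12, 13.5 and 16.6, and the difference at 90 min was -2.98 (standard error 0.33, adjusted p = 2.5e-09). IKKβSA cells reached 11.7. Dim lost 2 (row 10171) stayed between 1.7 and 2.31 in WT + Inh and reached 9.64 in WT at 60 min, with a difference of -2.21 at 90 min (adjusted p = 1.71e-06), but only 2.46 in IKKβSA cells.

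Of the delayed rises, delayed 1 (row 1984) carried the largest WT rise of all probe sets. It started at 4.11 in WT + Inh and 4.18 in WT. With the inhibitor it stood at 4.07 at 15 min and then at 9.3, 20.6, 26 and 32.2, still climbing at the last time, whereas WT had 14.4, 169.5, 354.1, 415.9 and 395.4. The difference of changes was -4.16 at 30 min (standard error 0.84, adjusted p = 1.49e-04 by limma). Its highest change was 2.97 in WT + Inh and 6.64 in WT, so the rise was smaller as well as later, and it was 6.12 in IKKβSA cells. Delayed 2 (row 26960) peaked at 60 min in WT + Inh and at 45 min in WT. The intensities in WT + Inh were 15, 18.8, 32.1, 37.9, 39.9 and 24.9, against 19.9, 52.2, 129.6, 157.1, 112.9 and 63.1 in WT. The largest difference was -1.64 at 45 min (adjusted p = 7.83e-04). Both probe sets had returned part of the way or levelled off in WT by 90 min.

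Among rises that reached 2-fold in both conditions, the time of the peak was the same for most and the onset often was not. Where WT was highest at 90 min, the last time sampled, a later peak in WT + Inh could not be seen. Courses still climbing at 90 min in both conditions count as the same peak time. Of 110 such WT rises, 32 first reached 2-fold at a later time in WT + Inh, 55 at the same time and 23 at an earlier time. A shift of 2 or more sampled times was seen for 4, all of them later in WT + Inh. The highest value came later in WT + Inh for 26, at the same time for 77 and earlier for 7. The rises chosen in IKKβSA cells that reached 2-fold in both numbered 104. All of them were among these 110, because all 206 probe sets that reached 2-fold in WT were WT rises. They are thus no second set, and their highest value came later for 26, at the same time for 71 and earlier for 7. When the 206 WT rises were compared between columns by the root mean square difference of their changes, WT + Inh at 30 min lay about as near to WT at 15 min (0.63) as to WT at 30 min (0.61). WT + Inh at 45 min lay nearest to WT at 30 min (0.65, against 0.72 for WT at 45 min), and WT + Inh at 90 min nearest to WT at 60 min (0.74, against 0.81). WT + Inh at 60 min lay at 0.7 from WT at 45 min and 0.72 from WT at 60 min. For the 298 rises chosen in IKKβSA cells the earlier WT time was also the nearer at 45 min (0.58 against 0.62) and 90 min (0.65 against 0.67), but not at 60 min (0.64 for WT at 45 min against 0.62 for WT at 60 min). A smaller rise and a later one both give such an order.

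**Figure D3:**
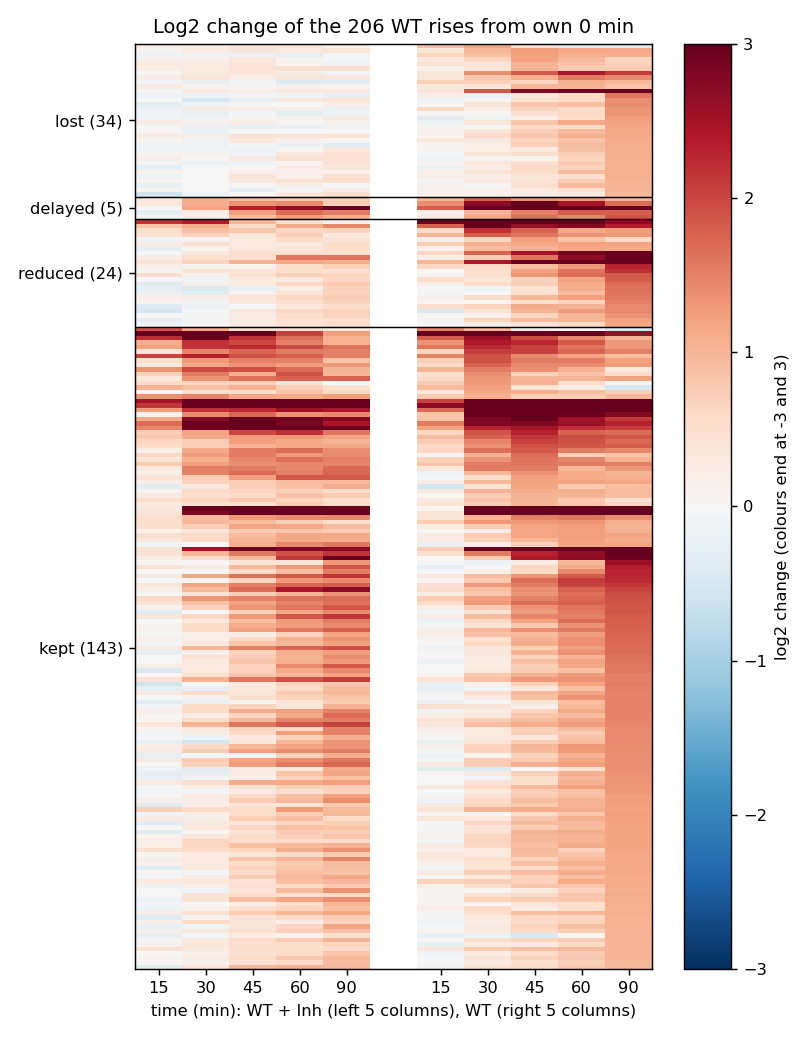
Log2 change against the 0 min column of the same cells for the 206 WT rises (rows, by class and then by time of the WT peak), at 15 to 90 min in WT + Inh (left) and WT (right). The 34 lost rises are near 0 throughout in WT + Inh, the 24 reduced ones are paler there than in WT, and most of the 143 kept ones have like colours on both sides.

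Reduced rises included 1 of the largest WT responses. Early reduced 1 (row 20634) had 1.9 at 0 min in WT + Inh and then 8.58, 9.88, 3.79, 2.74 and 2.08. WT had 6.53 and then 215.2, 266.3, 136.3, 69.6 and 42.2. Both courses were highest at 30 min, and the groups did not overlap after 0 min. The highest change was 2.38 in WT + Inh and 5.35 in WT, and the difference was largest at 45 min at -3.39 (standard error 0.69, adjusted p = 0.0058 by limma). The call was lost with 2 spline degrees of freedom and without the 45 min columns (adjusted p up to 0.577). In IKKβSA cells it reached 215.9. Early reduced 2 (row 16725) had its highest change at 1.44 in WT + Inh, 1.78 in IKKβSA cells and 3.11 in WT. It thus stood below WT in both altered conditions, with a largest difference of -2.07 at 45 min (adjusted p = 3.99e-04, but 0.0579 with 2 spline degrees of freedom).

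Late reduced rises had median changes of -0.05, 0.09, 0.29, 0.5 and 0.67 at 15, 30, 45, 60 and 90 min in WT + Inh, against 0.14, 0.53, 0.98, 1.2 and 1.61 in WT. The gap between the medians was widest at the last time. Late reduced 1 (row 35535) had 5.28, 5.47, 11.6 and 11.8 at 30, 45, 60 and 90 min in WT + Inh and 6.61, 12, 25.3 and 45.8 in WT, a difference of -1.91 at 90 min (adjusted p = 1.56e-05). Late reduced 2 (row 16561) ended at 63.2 in WT + Inh and 140.2 in WT, with a difference of -1.22 (adjusted p = 6.2e-07). Late reduced 3 (row 5015) and late reduced 4 (row 8925) had differences of -0.97 and -0.95 at 90 min (adjusted p = 0.00121 and 3.79e-04). Their first column above 0 min in WT + Inh was that at 60 min for late reduced 3 and at 45 min for late reduced 4, and in WT that at 45 min for both. The call for late reduced 4 was lost without the 90 min columns (adjusted p = 0.113).

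**Figure D4:**
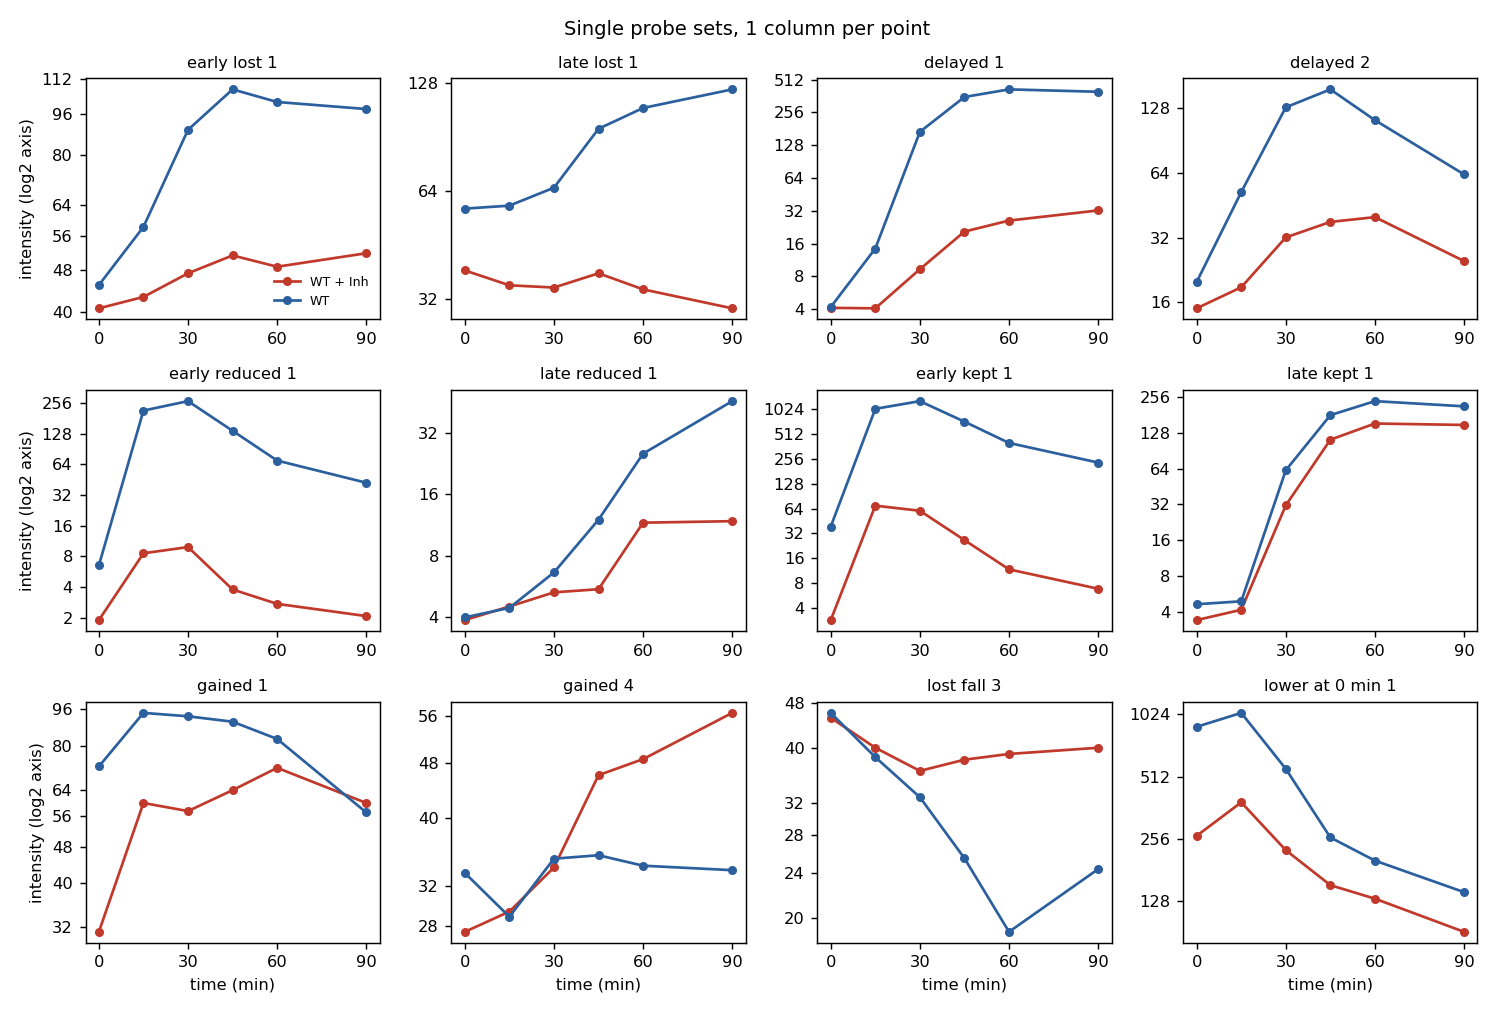
Intensity of 12 single probe sets (log2 axis, a scale of its own in each panel) against time after 10 μg/ml anti-IgM in WT + Inh (red) and WT (blue), 1 column per point and no error bars because each condition and time has 1 column. Delayed 1 reaches 32.2 in WT + Inh and 415.9 in WT, and early kept 1 rises in both, at a lower level in WT + Inh.

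Most of the kept rises, a class set by limits on the highest change, had a lower level in WT + Inh. At all 5 stimulated times this held for 91 of the 143. The mean level over these times was called lower in WT + Inh for 91 and higher for 3. Of all probe sets, 4.23% and 8.78% were called in these directions. The kept rises had been chosen for high WT values in these same columns, which favours a lower level in WT + Inh. Early kept 1 (row 35219) had the largest early WT rise of this class. Its intensities in WT + Inh were 2.84, 69.3, 60.1, 26.5, 11.7 and 6.81, and in WT 38.6, 1034.4, 1282.5, 722.8, 399.1 and 230.7. All WT + Inh columns lay far below the WT column of the same time, yet the highest changes were 4.61 in WT + Inh and 5.05 in WT and the difference of changes, largest at 60 min at -1.33 (standard error 0.84), was not called (adjusted p = 0.522). It was called without the 15 min columns (adjusted p = 0.00127), and with log2(intensity + 8) it was -2.3 (adjusted p = 0.0647). The WT + Inh 0 min value of 2.84 lay at about the median of its column (2.83). Whether a dim start limited the fold measured from it was not tested. IKKβSA cells also started low, at 3.89, but reached 1082.5. Early kept 2 (row 35507) started at 6.81 in WT + Inh and 18 in WT and reached 232.7 and 497.3, with highest changes of 5.1 and 4.79. Early kept 3 (row 5776) started at 5.75 in WT + Inh and 20.5 in WT and reached 107.2 and 362.8, with highest changes of 4.22 and 4.15, and its difference of changes passed the test only with log2(intensity + 8) (adjusted p = 0.0398). The late kept 1 and 2 (rows 15256 and 15257), which are neighbours in the table, climbed to 153.4 and 196.1 in WT + Inh and 236.8 and 278.4 in WT. For these the mean level over the stimulated times was -0.62 and -0.55 relative to WT and did not pass the test (adjusted p = 0.162 and 0.127). Late kept 3 (row 21753) reached 25.5 in WT + Inh and 162.4 in WT, from 3.32 and 7.67, and its difference of changes of -1.7 at 90 min was called (adjusted p = 0.0212) but not without the 45, 60 or 90 min columns or in a fit of the 12 columns alone.

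Unstimulated levels were lower with the inhibitor in the early rises as a group. At 0 min the level difference of the 53 early rises, WT + Inh minus WT, had a median of -0.41 (quartiles -0.79 and -0.15), and 46 of the 53 were lower in WT + Inh. The 153 late rises had a median of -0.07 (quartiles -0.21 and 0.05), and all probe sets tested had 0.01. A 0 min level lower by 0.5 or more was found for 24 early rises (45.3%) and 15 late rises (9.8%), where 1.23% of all probe sets were that low. At least 2-fold lower at 0 min were 0.0559% of all probe sets tested, and at least 2-fold higher 0.0149%. These are single columns with no replicate check. The 0 min column of IKKβSA cells was also lower than that of WT for the early rises, with a median difference of -0.4.

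The lower level went beyond the 0 min columns. At 15, 30, 45, 60 and 90 min after anti-IgM, the level difference of the early rises had medians of -0.52, -0.84, -0.79, -0.51 and -0.5. In the CD40 courses at 6 μg/ml CD40 ligand, which share no stimulated column with the BCR courses, the medians were -0.26, -0.46, -0.45, -0.57 and -0.4. Over all 11 pairs of columns, 30 of the 53 early rises (56.6%) and 41 of the 153 late rises (26.8%) were lower in WT + Inh every time, against 1.4% of all probe sets tested. By a test of the mean level over the 5 stimulated BCR times, added after the data had been seen, 40 of the 53 early rises were lower in WT + Inh and 1 higher, and 106 of the 153 late rises were lower and 2 higher. Of all probe sets, 4.23% were called lower in this test and 8.78% higher (limma, adjusted p under 0.05). The early and late rises were chosen in the WT BCR columns, which this test also uses, but not in the CD40 columns.

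**Figure D5:**
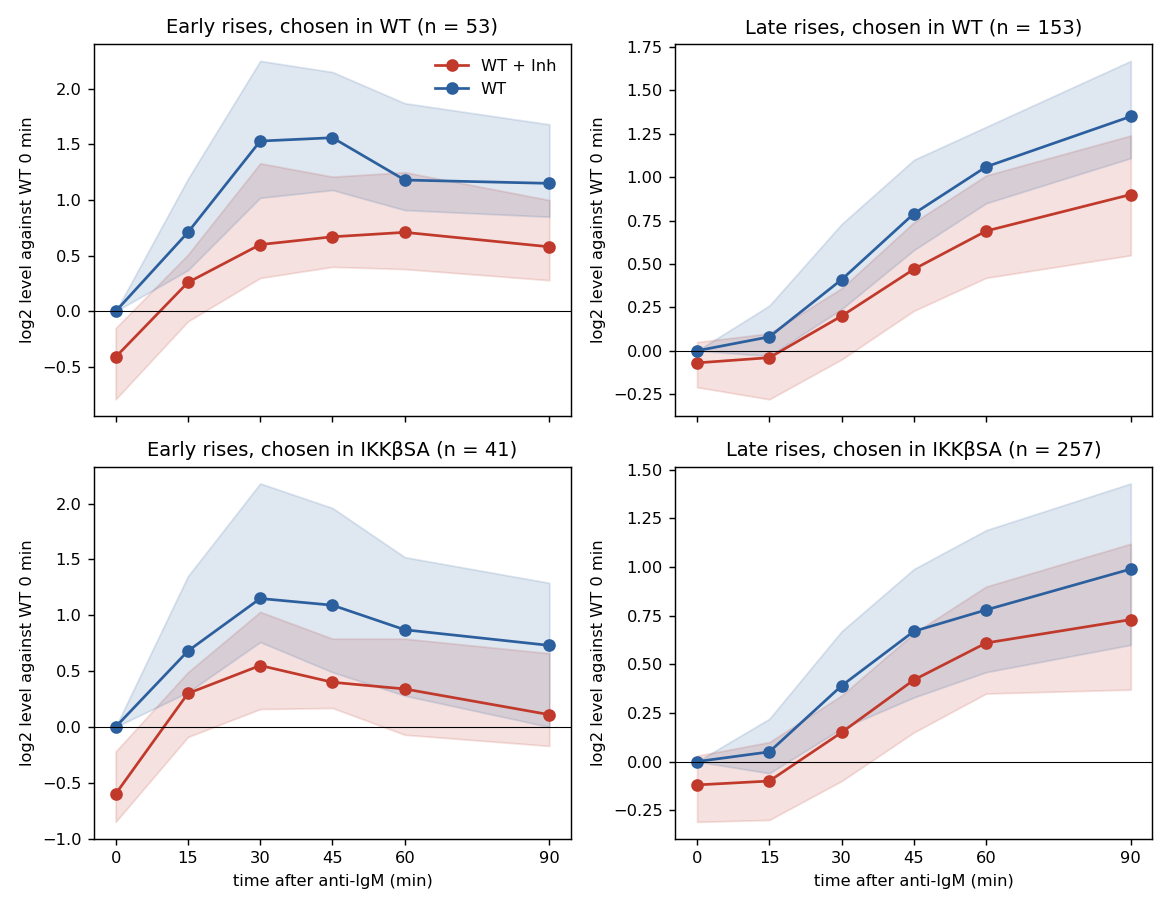
Median log2 level against the WT 0 min column (lines) with the quartiles over probe sets (shaded, a spread over probe sets and not an error) in WT + Inh (red) and WT (blue), for early and late rises chosen in WT (top) and in IKKβSA cells (bottom). In the early rises the red line starts below the blue, at -0.41 for the choice in WT and -0.6 for that in IKKβSA cells, and stays below it.

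Rises chosen in IKKβSA cells use no WT and no WT + Inh column. If IKKβSA cells also received U0126, which is unclear, that choice would still favour rises seen with the inhibitor. Of the 41 early rises of the IKKβSA BCR course, the median changes in WT + Inh at 15, 30, 45, 60 and 90 min were 0.63, 1.08, 1.02, 0.85 and 0.67, against 0.68, 1.15, 1.09, 0.87 and 0.73 in WT. The highest change was smaller in WT + Inh for 21 of the 41, close to an even split. The median level difference was -0.6 at 0 min and -0.52, -0.65, -0.49, -0.36 and -0.37 at the stimulated times, and 27 of the 41 passed the test of the mean level as lower, 1 as higher. All 11 pairs of columns were lower for 25 of them (61%). The 257 late rises of IKKβSA cells had median changes of 0.24, 0.5, 0.72 and 0.79 at 30, 45, 60 and 90 min in WT + Inh and 0.39, 0.67, 0.78 and 0.99 in WT. Here 160 of the 257 had the smaller highest change in WT + Inh. The difference between courses was called for 61 of them, 48 below 0 and 13 above, where 2.14% and 6.26% of all probe sets were called in these directions. Rises absent from IKKβSA cells are missing from this choice. The 41 early rises chosen at 1 μg/ml anti-IgM in WT, which share the WT 0 min column, had a median change at 30 min of 1.24 in WT + Inh and 1.8 in WT at 10 μg/ml, and 28 of the 41 a smaller highest change in WT + Inh.

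Gained rises were defined as the mirror of lost ones: the WT + Inh course was called and at least 2-fold, and the highest change in WT stayed under 0.5. There were 20 of the 165 WT + Inh rises (12.1%), 4 early and 16 late, against 34 lost of 206. With log2(intensity + 8) 1 was gained and 12 were lost, 7 of the 12 among the 34. The median change of the 20 gained rises was 0.47, 0.57, 0.84, 0.95 and 0.9 at 15, 30, 45, 60 and 90 min in WT + Inh. In WT it was -0.01, 0.29, 0.16, 0.12 and 0.05. The difference between courses was called for 10 of the 20, all above 0, where 6.26% of all probe sets were called in that direction. The definition of a gained rise itself favours a difference above 0. In 8 of the 20 the 0 min level was lower by 0.5 or more in WT + Inh, where 1.23% of all probe sets were that low. The median over the 20 was -0.44. Their rises are measured from the WT + Inh 0 min column, so a low value there was favoured by the choice. In the WT course at 1 μg/ml anti-IgM 0 of the 20 reached 2-fold, and in IKKβSA cells 3 did. Of all probe sets tested, 0.719% and 1.11% did in those courses. The gained rises had been chosen for a small change in WT, and the 1 μg/ml course shares the WT 0 min column. A low count in that course was thus favoured by the choice. No advanced rises, the mirror of delayed ones, were found among the WT + Inh rises. Apart from the gained rises, 9 rises were more than 2 times as large in WT + Inh as in WT on the log2 scale.

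All 4 single gained rises started lower with the inhibitor, but they differed in the level reached. Gained 1 (row 20670) had 31.3, 59.9, 57.5, 63.9, 71.5 and 59.9 in WT + Inh and 72, 94.3, 92.7, 90.2, 82.7 and 57.1 in WT. It started far lower with the inhibitor and met the WT level only at 90 min, so the gain in change (1.27 at 90 min, standard error 0.24, adjusted p = 0.00269) was no gain in level, and its mean level over the stimulated times was lower in WT + Inh (adjusted p = 1.78e-04). Gained 4 (row 11266) had 27.5, 29.4, 34, 46.1, 48.6 and 56.6 in WT + Inh and 33.4, 28.9, 35, 35.4, 34.2 and 33.7 in WT. Here the WT + Inh columns were above the WT columns from 45 min on, and the difference of changes was 1.03 at 90 min (standard error 0.25, adjusted p = 0.0156). Gained 2 (row 10432) reached 40.8 in WT + Inh and 27.6 in WT at 90 min, from 18.9 and 27.7, a difference of 1.12 (adjusted p = 0.0127). Gained 3 (row 26911) was at 52.9 in WT + Inh and 35.3 in WT at 90 min, from 34 and 47.6, a difference of 1.07 (adjusted p = 0.00171). The mean level over the stimulated times was called higher in WT + Inh for 6 of the 20, where 8.78% of all probe sets were. The 20 had been chosen for high changes in WT + Inh and low ones in WT at these times, which favours a higher level. The called differences of all 4 single gained rises were lost without the 90 min columns (adjusted p between 0.075 and 0.126).

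Fewer probe sets fell with the inhibitor. In WT + Inh 78 probe sets (0.29%) were called and at least 2-fold lower, and in WT 361 (1.34%), nearly all late. Of the 361 WT falls, 138 (38.2%) were lost, 1 was delayed, 34 reduced and 188 kept by the mirrored definitions. The lost falls had median changes of -0.15, -0.16 and -0.25 at 45, 60 and 90 min in WT + Inh, against -0.69, -0.95 and -1.08 in WT. The difference was called for 101 of the 138, all above 0, where 6.26% of all probe sets were called above 0. Before stimulation these lost falls already lay lower with the inhibitor than in WT (median -0.25), and the IKKβSA 0 min column lay lower too (-0.35). By the test of the mean level over the stimulated times, 69 of the 138 were higher with the inhibitor and 2 lower. Of all probe sets, 8.78% and 4.23% were called in these directions. The lost falls had been chosen for low WT values at these times, which favours a higher level with the inhibitor. Every WT fall is measured from the same WT 0 min column, and how far a high value there made up this class was not tested. Lost falls depended on the scale: with log2(intensity + 8) they numbered 11 of 68 WT falls, without the 90 min columns 80, and with centring over all probe sets 262. Of the 138, 31 also fell 2-fold or more at 1 μg/ml anti-IgM in WT and 2 in IKKβSA cells, where 0.722% and 0.179% of all probe sets did. Of the 188 kept falls, 106 did so at 1 μg/ml and 30 in IKKβSA cells. Both classes had been chosen for a fall in WT. The 1 μg/ml course shares the WT 0 min column, so a fall there was favoured by the choice. Lost fall 3 (row 15914) had 45.2, 40, 36.4, 38.1, 39 and 40 in WT + Inh and 46.1, 38.5, 32.7, 25.5, 18.9 and 24.4 in WT, with nearly equal starts and a gap that widened up to 60 min (difference 1.07 at 60 min, standard error 0.17, adjusted p = 6.49e-05). Lost fall 1 (row 4332) ended at 44.1 in WT + Inh and 22.7 in WT, after 44.8 and 51.4, with a difference of 1.16 (adjusted p = 0.00696). Lost fall 2 (row 6091) and lost fall 4 (row 34892) had differences of 1.11 at 90 min and 1.05 at 60 min (adjusted p = 0.0167 and 0.00356). The calls for lost fall 1 and 2 were lost without the 60 or the 90 min columns, and that for lost fall 2 also without the 45 min columns.

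The 43 falls chosen in IKKβSA cells, with the same doubt about the inhibitor, had median changes of -0.68 and -0.93 at 60 and 90 min in WT + Inh and -1.19 and -1.38 in WT. A smaller largest fall in WT + Inh was found for 37 of the 43, and 20 had a called difference above 0 and 1 below, where 6.26% and 2.14% of all probe sets did. Falls at 1 μg/ml anti-IgM in WT numbered 190, with -0.5 and -0.7 at 60 and 90 min in WT + Inh and -1.06 and -1.23 in WT at 10 μg/ml. Starting levels differed here as well. The level difference of the 361 WT falls had a median of -0.2 at 0 min, with 304 lower in WT + Inh, and of 0.37 and 0.43 at 60 and 90 min. Of all 26852 probe sets tested, 12886 were lower in WT + Inh at 0 min. For the same falls the IKKβSA 0 min column had a median difference from WT of -0.31. A choice of falls in WT favours a high WT value at 0 min and low WT values later. Gained falls were 6 of 78. Their 0 min level was higher by 0.5 or more in WT + Inh for 5 of the 6 and lower by 0.5 or more for 1, with a median of 0.77. These falls are measured from the WT + Inh 0 min column, so a high value there was favoured by the choice. Gained fall 2 (row 27553) moved steadily down in WT + Inh, with 63.8, 59.1, 57.6, 51.8, 46.7 and 31.7, while WT had 97, 90.6, 100.1, 92.7, 94.9 and 78.2 (difference -0.7 at 90 min, adjusted p = 0.0018). Gained fall 1 (row 9523) had 1 column far above the rest and lost its call under 5 alternatives (adjusted p up to 0.502): WT + Inh had 42.1 at 0 min and 11.7 to 26.4 afterwards, and WT had 15.5 and then 11.7 to 20.6. The call for gained fall 2 was lost without the 90 min columns (adjusted p = 0.182).

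CD40 ligation gave smaller changes in the same probe sets. These had been chosen for a rise after BCR stimulation, so a smaller change after CD40 ligand was favoured by the choice. In the 53 early WT rises the median change at 45 min after 6 μg/ml CD40 ligand was 0.32 in WT + Inh and 0.43 in WT, and in the 153 late rises at 90 min 0.18 in WT + Inh and 0.28 in WT. The BCR values at those times were 1.23 in WT + Inh and 1.56 in WT, and 0.95 in WT + Inh and 1.35 in WT. These courses share the 0 min columns with the BCR courses.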

How the data were processed

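The authors deposited 1 table of linear intensity values, with 2 biological replicates combined per column. RMA is the tool listed in the submitters' processing notes, with no version, and the sources used here do not say how replicates were combined. Arrays limit the precision through their number, 1 column per condition and time.

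Values were taken to log2 without a pseudocount, and 11509 probe sets at or below the 30th percentile of mean log2 level (1.05) were left out. With R 4.3.3 and limma 3.58.1, all 53 columns were fitted together: each cell condition had its intercept and each course its natural cubic spline over time (knots at 25 and 50 min, 33 parameters). Courses and their differences were tested with moderated F statistics with an intensity trend. The paper's methods name no test. The test of the difference between courses was tried on simulated data, and the classifier on a few profiles written by hand. The simulated noise was independent for every value, with no shift shared by a whole column. Single probe sets were the 4 with the largest difference in each class among those called and with an intensity of at least 32 (the 3 largest WT rises in the kept classes). The classes, lists and rules were chosen with earlier results of these data known. Alternatives changed the filter, centring, spline, pseudocount, class limits and the times used.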

Additional observations from a re-analysis of the deposited data

Results flagged for a closer look

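The BCR course differed between WT + Inh and WT, by the test of the difference itself, for 2257 probe sets. Of the single probe sets described, the same test passed for the following, each given with its largest difference of log2 changes, WT + Inh minus WT. Among WT rises, early lost 1 had -0.91, late lost 1 to 4 had -1.45, -1.11, -1.11 and -0.99, and dim lost 1 and 2 had -2.98 and -2.21. Delayed 1 and 2 had -4.16 and -1.64, early reduced 1 and 2 had -3.39 and -2.07, late reduced 1 to 4 had -1.91, -1.22, -0.97 and -0.95, and late kept 3 had -1.7. Gained 1 to 4 had 1.27, 1.12, 1.07 and 1.03. Among falls, lost fall 1 to 4 had 1.16, 1.11, 1.07 and 1.05, and gained fall 1 and 2 had -1.47 and -0.7. The probe sets lower at 0 min 1 and 2 had 1.14 and 1.02. All were picked for a large difference, a large rise or a large gap at 0 min, with the values known. No group has the 4 samples needed to look for a sample that stands apart.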

How the results depend on the processing

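The number of called differences between the courses was 2257, and it was 1219 with 2 spline degrees of freedom, 884, 652, 588 and 545 without the 30, 45, 60 and 90 min columns, 3454 without the 0 min columns, 2 with time as a factor, 238 with a minimum of 2-fold, 3493 for the mean level over the stimulated times and 3431 with columns centred on their medians over all probe sets (the last 2 chosen after seeing the data). Without the 15 min columns it was 3095. The cause of these shifts was not tested. That centring called 2959 above 0 and 472 below, against 1682 and 575. The WT course was called for 3186 probe sets without the 90 min columns, and the WT + Inh course for 1767, 2043 and 1358 without those at 45, 60 and 90 min. Lost rises (34) numbered 20 without the 90 min columns, 12 with log2(intensity + 8), 20 with centring over all probe sets, 12 with a limit of 0.25 and 10 with an intensity of at least 32. Without the 90 min columns 13 of the 20 were among the 34, and with log2(intensity + 8) 7 of the 12. With centring over all probe sets all 20 were. WT rises numbered 141, 115 and 173 in these settings, against 206. Delayed rises (5) numbered 2 without the 15 or the 30 min columns, 1 with log2(intensity + 8) and 3 with a called difference. Gained rises (20) numbered 1 with log2(intensity + 8), 6 with a limit of 0.25, 10 with a called difference and 7 with an intensity of at least 32. Lost falls (138) numbered 80 without the 90 min columns, 11 with log2(intensity + 8) and 262 with centring over all probe sets. The added 8 shrinks the changes of dim probe sets, so fewer reach 2-fold. Of 394 values of single probe sets under the alternatives, 361 kept direction and side of the threshold 30 were no longer called, mostly without 1 of the times from 45 min on, 2 became called (early kept 1 and 3) and 1 reversed. Early kept 2, not called in any setting, turned from 0.41 to -0.39 with log2(intensity + 8). No paired analysis was possible because the labels give no replicate numbers to pair by, and columns were paired by time only, in the fit with time as a factor.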

Other observations

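At 0 min, 15 probe sets were at least 2-fold lower in WT + Inh than in WT, WT rises among them, and 4 at least 2-fold higher. Lower at 0 min 1 (row 33384), which is no WT rise and was picked after its values had been seen, had 264.1, 383.8, 224.9, 152.2, 130.9 and 90.4 in WT + Inh and 892.1, 1041.8, 557.6, 259.2, 200.2 and 140.8 in WT at 0, 15, 30, 45, 60 and 90 min. Both courses were called and went down after 15 min, and the gap in level was largest before stimulation (-1.76). Lower at 0 min 2 (row 30970) had 17.9, 28.2, 27.4, 28.2, 23.2 and 19.4 in WT + Inh and 53.1, 58.5, 66.5, 44.5, 33.8 and 29.9 in WT. IKKβSA cells had 749.5 and 32.8 at 0 min for these 2.

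After 6 μg/ml CD40 ligand, differences of changes of at least 2-fold between WT + Inh and WT numbered 6 below and 25 above 0 at 15 min, 8 and 67 at 30 min, and 23 and 75 at 90 min.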
